A study of Mus musculus with 8 samples.

Results

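The genes described here are interferon-stimulated genes, followed across 8 mouse mammary tumors. They are a list of 47 genes, and a gene counted as measured where an array row carried its symbol and no other. For 2 genes with more than 1 such row, the row with the higher mean signal was used. Of the 47 genes, 43 had a row of their own, out of 22180 genes with such a row on the array. Oas1a, Gbp2 and Dtx3l lay only on rows shared with another symbol and were given no value, and Ifi44 was not analysed here.

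The tumors arose in MMTV-PyMT mice, in which the viral MMTV promoter drives the polyoma middle T oncogene mainly in mammary epithelium. All 8 mice were congenic FVB/NJ, 3 to 4 months old, and homozygous for floxed alleles of Mmp14, which encodes a membrane-anchored matrix metalloproteinase. In 4 of them, called cKO after their conditional knockout label, an MMTV-Cre transgene deletes the floxed alleles in the cells that expressed it. The other 4, called WT because the submitters label them wild-type, were littermates with the same floxed alleles and no Cre. Total RNA of whole flash-frozen tumors from inguinal and thoracic glands was hybridised to Affymetrix arrays, 1 array per tumor. No group carried Cre without floxed Mmp14, so the presence of Cre and the loss of Mmp14 cannot be told apart. The arrays measured all cells of a tumor together, so fewer cells of a type and less RNA per cell cannot be told apart either.

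Type I and type III interferons bind cell-surface receptors whose JAK kinases activate a transcription factor complex, which includes STAT2 and IRF9 and binds interferon-stimulated response elements in promoters. Interferon gamma acts mainly through a different element, the gamma-activated site. The induced genes encode sensors of viral RNA and DNA, further transcription factors, enzymes that degrade or modify viral RNA, proteins that block translation or budding, and brakes on the response, and many of them are also transcribed at a low level in tumors without any infection.

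Values are the deposited log2 signals, on which a difference of 1 is a doubling of signal. The 8 array medians lay between 3.64 and 3.71. Mmp14 itself was 9.12 ± 0.19 (SD, n = 4) in WT and 7.72 ± 0.22 in cKO tumors, with no overlap and a limma adjusted p of 0.0444. Its difference lay between −1.48 and −1.30 with any 1 tumor left out, but the call held in only 2 of these 8 fits, those without cKO 1 and without cKO 3. Without the other tumors its adjusted p ran from 0.0582, without cKO 2, to 0.211, without cKO 4, and it was 0.353 with the replicate number as a block. Of 10 luminal epithelial markers, 9 were measured, among them the cell adhesion gene Epcam and the keratin genes Krt8 and Krt18, and all 9 had a mean signal of at least 5. The number of arrays limits the precision. The p-values given here weigh a group difference against the spread among tumors of a group. With 1 array per tumor, spread between tumors and spread between arrays cannot be told apart.

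The interferon-stimulated genes moved together from tumor to tumor, and 33 of the 43 followed the mean of the others with a Pearson r of at least 0.9 over the 8 tumors. They were also among the more variable genes. Their median SD over the 8 tumors was 0.70 on the log2 scale, against 0.20 for the 9940 genes with a mean of at least 5, and 40 of the 43 exceeded that background median. Over the 903 pairs of these genes the median r was 0.919, and 55.5% of the pairs had an r above 0.9. Over all pairs of the 9940 genes the median r was 0.0062, and 0.352% of pairs were above 0.9. These correlations are descriptions over 8 tumors whose values share their arrays and their normalization.

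The pattern was also present among tumors of the same group. When each gene's group mean was subtracted, so that only differences among tumors of the same group remained, the median r over pairs was 0.892, against 0.0090 for the background genes. A single component held 93.1% of the variance of the 43 genes, whereas the first component of the 9940 background genes held 36.6% of theirs. For the median member, 35.2% of the variance lay between the groups and the rest lay among tumors of a group, with a range over members from 0.363% for Gbp6 to 78.3% for Eif2ak2. The same median was 14.8% for the background genes.

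**Figure D1:**
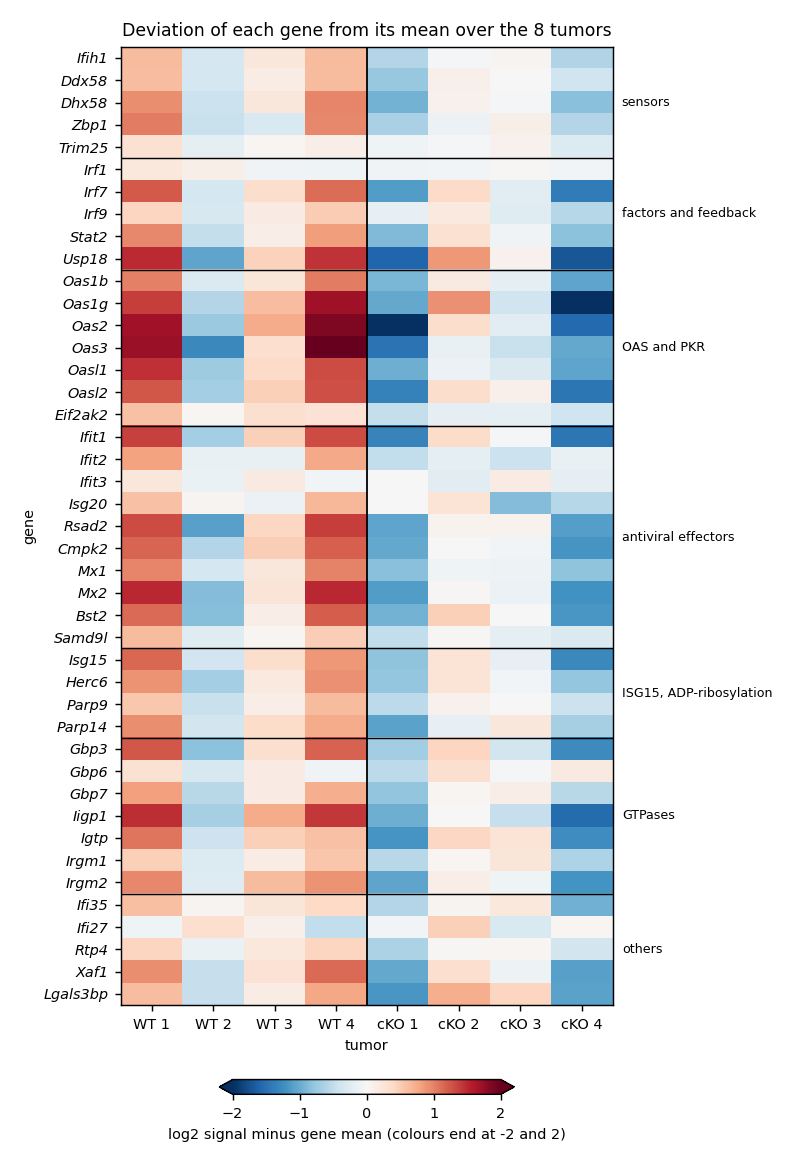
Log2 signal of the 43 genes (rows, grouped by role) in each of the 8 tumors (columns), shown as the deviation from the gene's mean over the tumors. WT 1 and WT 4 are high and cKO 1 and cKO 4 low in nearly every row, while Irf1, Ifit3, Gbp6 and Ifi27 do not follow the others.

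A score was computed for each tumor as the mean, over the 43 genes, of the log2 signal minus the gene's mean over the 8 tumors. It was 0.91, −0.44, 0.26 and 0.86 in WT 1 to WT 4, and −0.81, 0.17, −0.08 and −0.87 in cKO 1 to cKO 4. The groups therefore overlapped: WT 2 lay below both cKO 2 and cKO 3. The order was the same for most single genes. WT 1 or WT 4 was the highest tumor for 41 genes, and cKO 1 or cKO 4 the lowest for 39. WT 2 was the lowest WT tumor for 39 genes, and it lay below cKO 2 for 39 and below cKO 3 for 38.

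**Figure D2:**
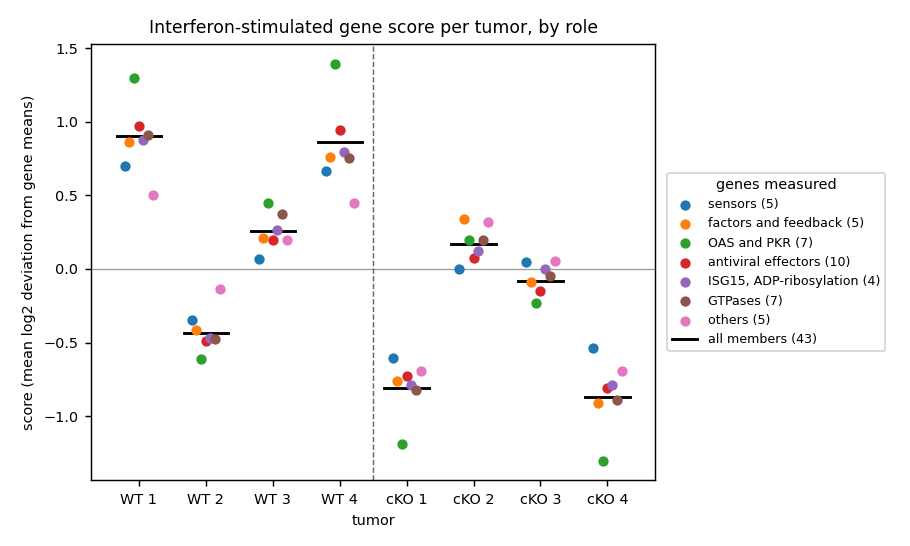
Score per tumor (mean log2 deviation from the gene means) for each of the 7 roles (points) and for all 43 genes (bars). All 7 roles place WT 1 and WT 4 highest and cKO 1 and cKO 4 lowest, and the OAS and PKR genes spread most, from −1.30 in cKO 4 to 1.40 in WT 4.

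Promoter sequence was examined as a description only. The genes were listed as interferon-stimulated, so a raised share of interferon response elements was to be foreseen from the list itself. RefSeq windows of mouse assembly GRCm38.p6, from 250 bases before to 50 bases after a transcript start, were found for 34 of the 47 genes; that reference strain is not the FVB/NJ strain of the tumors. The interferon response element core GAAANNGAA, searched on both strands with overlapping matches allowed, occurred in 21 of the 34 genes (61.8%), against 9.76% of the 27025 genes of the table. A longer form in which the core is followed by ACT occurred in 10 of the 34 (29.4%) against 0.303% of all genes. The gamma-activated site TTCNNNGAA occurred in 10 of the 34 (29.4%) against 9.55%. Counted per window instead of per gene, the core was in 52.5% of the members' windows and in 8.56% of all windows. A match is a description of these letters and does not show that a factor binds there.

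The parts of 4 windows before the transcript start are shown, chosen after the values were seen. Ifit1 was the gene closest to the mean of the others, Isg15 a gene of another role that also followed it, Ifit3 a gene with the motif whose row did not follow the others, and Irf1 a gene without the core whose row hardly varied. Genes without the core were not all like Irf1. Irf7, Cmpk2 and Xaf1 also lacked it and had r with the others of 0.988, 0.993 and 0.993, whereas Isg20 and Ifit2 lacked it and had 0.649 and 0.806. Ifit1 lies on the plus strand at chr19:34640639-34640888, Isg15 on the minus strand at chr4:156200819-156201068, Ifit3 on the plus strand at chr19:34583279-34583528, and Irf1 on the plus strand at chr11:53769764-53770013. Sequences run 5′ to 3′ along the gene. Capitals mark GAAANNGAA on either strand in the first 3, and TTCNNNGAA in Irf1:
Ifit1: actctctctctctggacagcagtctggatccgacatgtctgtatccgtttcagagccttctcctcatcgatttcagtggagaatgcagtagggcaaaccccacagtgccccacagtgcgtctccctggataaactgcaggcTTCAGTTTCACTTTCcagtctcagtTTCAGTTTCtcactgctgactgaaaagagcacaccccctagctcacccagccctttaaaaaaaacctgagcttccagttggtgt
Isg15: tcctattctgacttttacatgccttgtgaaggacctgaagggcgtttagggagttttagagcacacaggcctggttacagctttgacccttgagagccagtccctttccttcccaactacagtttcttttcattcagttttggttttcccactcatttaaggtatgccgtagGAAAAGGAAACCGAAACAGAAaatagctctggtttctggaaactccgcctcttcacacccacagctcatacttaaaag
Ifit3: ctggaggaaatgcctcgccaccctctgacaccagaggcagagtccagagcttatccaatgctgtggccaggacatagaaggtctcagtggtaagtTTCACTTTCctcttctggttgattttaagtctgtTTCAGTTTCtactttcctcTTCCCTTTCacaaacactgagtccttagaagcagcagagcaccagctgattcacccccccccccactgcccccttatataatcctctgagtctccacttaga
Irf1: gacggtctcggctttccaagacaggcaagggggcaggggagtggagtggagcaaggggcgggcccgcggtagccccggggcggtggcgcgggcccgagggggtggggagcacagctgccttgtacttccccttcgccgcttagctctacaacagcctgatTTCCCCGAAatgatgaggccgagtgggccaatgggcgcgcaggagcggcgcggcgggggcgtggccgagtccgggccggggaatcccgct

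Counted from the transcript start, the Ifit1 window holds 3 matches on the opposite strand, at −109 to −101, −103 to −95 and −84 to −76, of which the first 2 share 3 bases. In Isg15 there are 3 overlapping matches on the gene's own strand, which together span −78 to −58. Ifit3 has 3 separate matches on the opposite strand, the nearest at −102 to −94. The shown Irf1 window, 1 of 2 for that gene, has no match to the core and 1 to TTCNNNGAA, at −90 to −82.

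Sensors of foreign nucleic acid formed the first role. Dhx58 encodes LGP2, a regulator of the RNA sensors RIG-I and MDA5, and measured 7.86, 6.50, 7.16 and 7.91 in WT 1 to WT 4 and 5.99, 7.01, 6.91 and 6.09 in cKO 1 to cKO 4. Ddx58, which encodes RIG-I itself, measured 9.37, 8.40, 8.90 and 9.39 in WT and 7.99, 8.85, 8.75 and 8.35 in cKO. Both genes overlapped between the groups, with WT 2 below cKO 2 and cKO 3. Zbp1, a sensor of left-handed nucleic acid that can trigger cell death, measured 9.17, 7.70, 7.84 and 9.12 in WT and 7.51, 8.04, 8.27 and 7.57 in cKO, so that WT 3 also lay within the cKO range. Ifih1, which encodes MDA5, followed the other members with r = 0.986, and Trim25, the ubiquitin ligase that assists RIG-I, with r = 0.885 over a range of only 0.59 log2 units between the highest and lowest tumor.

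Among the transcription factors and feedback genes, Irf7, the factor that amplifies interferon production, measured 10.02, 8.46, 9.15 and 9.92 in WT 1 to WT 4. In cKO 1 to cKO 4 it measured 7.68, 9.19, 8.58 and 7.41, a 6.12-fold range over the 8 tumors. Usp18, the protease that removes ISG15 from proteins and blocks receptor signalling, had the largest SD of this role, 1.30. Its values were 8.96, 6.42, 7.94 and 8.92 in WT and 5.89, 8.34, 7.56 and 5.76 in cKO. In both genes WT 2 lay between the high and the low cKO tumors. Stat2, a subunit of the complex that carries the interferon signal, measured 8.32, 6.89, 7.50 and 8.19 in WT and 6.49, 7.68, 7.29 and 6.55 in cKO, and its r with the other members was 0.993. Irf9, the DNA-binding subunit of the same complex, had an r of 0.925.

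The oligoadenylate synthetase family, of which some members make the messenger that activates RNase L, spread most of all roles. Oas2 measured 8.77, 6.34, 7.82 and 8.95 in WT 1 to WT 4 and 4.98, 7.44, 6.87 and 5.53 in cKO 1 to cKO 4, a 15.7-fold range. Oas1g ranged 19.4-fold, with 7.82, 5.86, 7.07 and 8.14 in WT and 5.42, 7.36, 6.04 and 3.86 in cKO. Its cKO 4 value was the lowest of the 8, and WT 2 lay below cKO 2 and cKO 3. Oas3 measured 7.37, 4.34, 5.97 and 7.94 in WT and 4.16, 5.48, 5.19 and 4.61 in cKO, so its WT 2 lay below all cKO tumors except cKO 1. The Oas1 genes are near-identical copies of each other, and their separate values are uncertain. Oas1b, Oasl1 and Oasl2 followed the other members with r between 0.978 and 0.992.

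Eif2ak2, which encodes the kinase PKR that halts translation on double-stranded RNA, differed from the synthetases in having tumors of each group close together. It measured 9.71, 9.17, 9.45 and 9.42 in WT 1 to WT 4 and 8.65, 8.96, 8.93 and 8.74 in cKO 1 to cKO 4. All 4 cKO tumors lay below all 4 WT tumors. Its r with the other members was 0.868, lower than that of any measured synthetase.

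The antiviral effectors were led by Ifit1, which binds viral RNA lacking the host cap methylation and whose promoter holds 3 matches to the core. It measured 9.17, 7.12, 8.29 and 9.10 in WT 1 to WT 4 and 6.46, 8.17, 7.77 and 6.36 in cKO 1 to cKO 4, and its r of 0.997 was the highest of the 43. Rsad2, which encodes viperin, an enzyme that makes a nucleotide that ends viral RNA chains, measured 8.02, 5.62, 7.13 and 8.10 in WT and 5.67, 6.78, 6.79 and 5.61 in cKO. Here WT 2 was as low as cKO 1 and cKO 4, and below cKO 2 and cKO 3. The dynamin-like GTPase gene Mx2 measured 7.57, 5.20, 6.33 and 7.57 in WT and 4.96, 6.09, 5.96 and 4.85 in cKO. Its paralog Mx1 was on a dimmer row, with 4.996, 3.66, 4.24 and 5.01 in WT and 3.19, 3.93, 3.92 and 3.22 in cKO. Both Mx genes were high in WT 1 and WT 4 and low in cKO 1 and cKO 4, and their r with the other members was 0.985 for Mx1 and 0.988 for Mx2. The tetherin gene Bst2, Cmpk2, which is a kinase gene next to Rsad2, and Samd9l had r between 0.955 and 0.993, whereas Ifit2 had 0.806 and the exonuclease gene Isg20 0.649.

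In the role of ISG15 and ADP-ribosylation, Isg15, a ubiquitin-like modifier, measured 9.96, 8.43, 9.17 and 9.69 in WT 1 to WT 4. In cKO 1 to cKO 4 it measured 8.02, 9.10, 8.65 and 7.53, with an r of 0.983. Herc6, the mouse ligase that attaches ISG15 to proteins, measured 8.39, 6.82, 7.70 and 8.41 in WT and 6.72, 7.77, 7.43 and 6.72 in cKO. WT 2 was below cKO 2 and cKO 3 in both. Parp14, a mono-ADP-ribosyltransferase gene, measured 9.12, 7.81, 8.55 and 8.93 in WT and 7.11, 8.01, 8.40 and 7.52 in cKO. Parp9, a related gene that Dtx3l separates from it on the chromosome, had an r of 0.979.

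The guanylate-binding proteins and immunity-related GTPases attack the vacuoles of intracellular pathogens and respond strongly to interferon gamma. Iigp1 measured 9.34, 7.21, 8.61 and 9.28 in WT 1 to WT 4 and 6.89, 7.87, 7.40 and 6.32 in cKO 1 to cKO 4. Irgm2, a regulator of these GTPases, measured 7.67, 6.44, 7.33 and 7.60 in WT and 5.64, 6.84, 6.61 and 5.50 in cKO. In both, 3 WT tumors lay above every cKO tumor, and only WT 2 lay among the cKO values. Gbp3 measured 8.33, 6.27, 7.41 and 8.28 in WT and 6.40, 7.52, 6.73 and 5.82 in cKO, so cKO 2 also lay above WT 3. Igtp measured 8.66, 7.16, 8.07 and 8.17 in WT and 6.41, 8.005, 7.86 and 6.34 in cKO. Its 2 low cKO tumors stood apart, whereas cKO 2 and cKO 3 lay close to WT 3 and WT 4. Gbp7 and Irgm1 had r of 0.972 and 0.961. Members of both families are similar in sequence, so signal may be shared between their rows, which was not tested.

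Of the remaining genes, Xaf1, an apoptosis regulator, measured 8.24, 6.85, 7.59 and 8.43 in WT 1 to WT 4 and 6.27, 7.63, 7.19 and 6.21 in cKO 1 to cKO 4. Lgals3bp, which encodes a secreted galectin-binding protein, measured 10.87, 9.80, 10.41 and 11.04 in WT and 9.10, 10.98, 10.69 and 9.19 in cKO. Its cKO 2 lay between WT 1 and WT 4, and the groups overlapped over most of their range. Ifi35 measured 7.96, 7.42, 7.61 and 7.77 in WT and 6.78, 7.42, 7.59 and 6.41 in cKO. Here cKO 1 and cKO 4 alone lay below all WT tumors. Rtp4, a chaperone gene of the interferon response, followed the other members with r = 0.960.

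Only 4 of the 43 genes had an r under 0.5 with the mean of the others, and a further 6 lay between 0.5 and 0.9. Irf1, a transcription factor induced above all by interferon gamma, measured 6.38, 6.28, 6.10 and 6.09 in WT 1 to WT 4 and 6.11, 6.11, 6.20 and 6.11 in cKO 1 to cKO 4, a 1.22-fold range with r = 0.267. Ifi27 ran the other way, with 7.96, 8.37, 8.14 and 7.54 in WT, 7.99, 8.51, 7.73 and 8.08 in cKO, and r = −0.343. WT 4, among the highest tumors for the other genes, was thus the lowest for Ifi27. Ifit3 measured 6.07, 5.70, 6.01 and 5.79 in WT and 5.84, 5.63, 6.003 and 5.66 in cKO, with r = 0.452. The row of its near-identical copy Ifit3b, which is not on the list, had an r of 0.979 with the score of the 43 genes, so the separate values of these 2 copies are uncertain. Gbp6 had a mean of 3.26, the lowest of the 43, and an r of 0.490.

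**Figure D3:**
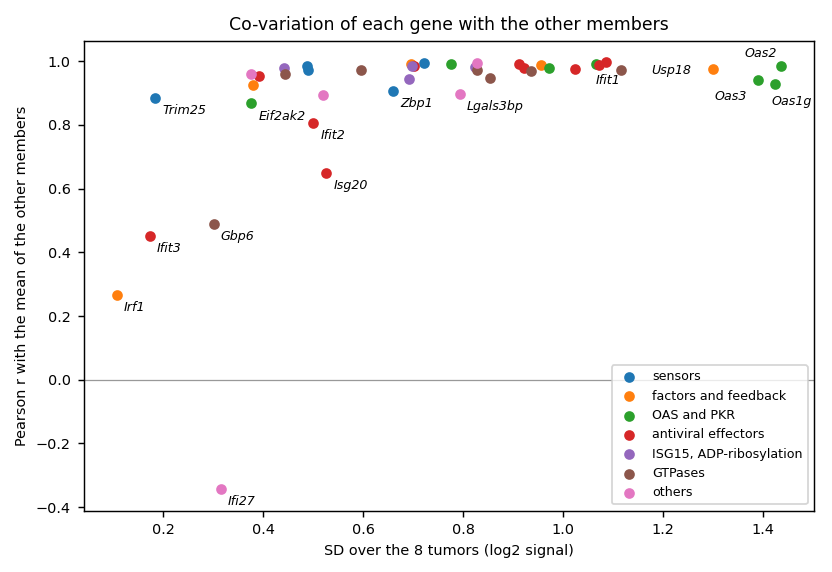
Pearson r of each of the 43 genes with the mean of the others over the 8 tumors (vertical axis) against the gene's SD over the tumors in log2 signal (horizontal axis), coloured by role. Genes with an SD above 0.70 all have an r of at least 0.89, and the 4 genes with r under 0.5 have an SD of 0.32 or less.

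Neighbouring genes on a chromosome mostly moved together, but so did members in general, with a median r of 0.919 over all 903 pairs. An effect of position was not tested. Rsad2 and Cmpk2, which adjoin each other, had r = 0.981 over the 8 tumors. Igtp and Irgm2 had 0.962, Oasl1 and Oasl2 0.954, Oas2 and Oas3 0.941, and Gbp3 and Gbp7 0.923. Ifit2 and Ifit3, also neighbours, had 0.220.

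The comparison of 4 cKO with 4 WT tumors asked whether these genes differed where Mmp14 was targeted. Of the 43 genes, 42 had a lower mean in cKO tumors, but none passed the test after adjustment over the whole array. The mean score was 0.40 ± 0.63 (SD, n = 4) in WT and −0.40 ± 0.52 in cKO, a difference smaller than the full range within either group, and 38.6% of the score's variance lay between the groups. Over the 43 genes the difference, cKO minus WT, had a median of −0.81 and a mean of −0.79, against a median of 0.02 over all 23521 rows tested. A lower mean in cKO was seen for 97.7% of the 43 genes and 43.5% of all rows. Since these genes move together, their number is not a number of independent observations, and no p-value was attached to the list.

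With limma and Benjamini-Hochberg adjustment over all rows, 0 of the 43 genes had an adjusted p under 0.05, where 0.0085% of all rows did. At an unadjusted p under 0.05, 19 of the 43 were lower in cKO and 0 higher, where 4.14% of all rows were lower at that level. This count of 19 depended on single tumors: it was 3 without WT 1, 3 without WT 4, 3 without cKO 1 and 4 without cKO 4. It was 36 without WT 2 and 29 without cKO 2, which were the low WT and the high cKO tumor, and 13 without WT 3 and 21 without cKO 3. The share of all rows at that level was not counted in the fits with 1 tumor left out, so their counts have no background. All 4 cKO tumors lay below all 4 WT tumors for 2 of the 43 genes, Eif2ak2 and Ifit2, where 1.73% of all rows did. For Ifit2 the groups all but touched, at 5.002 in WT 3 and 5.001 in cKO 4. For Eif2ak2 the nearest values were 9.17 in WT 2 and 8.96 in cKO 2.

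By role, the difference of the mean score was largest for the 7 OAS and PKR genes, at −1.26, with 4 of the 7 at an unadjusted p under 0.05. It was −0.81 for the 10 antiviral effectors (5 of 10), −0.78 for the 7 GTPases (2 of 7), −0.73 for the 4 genes of ISG15 and ADP-ribosylation (2 of 4) and −0.71 for the 5 factors and feedback genes (1 of 5). The 5 sensors had −0.55 (2 of 5) and the 5 remaining genes −0.51 (3 of 5). Of all rows, 4.14% were lower in cKO at that p. Differences between roles were not tested, and the role with the widest spread among tumors was also the one with the largest difference.

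The smallest p of the 43 belonged to Eif2ak2, with a difference of −0.62 ± 0.13 (SE, 95% interval −0.91 to −0.34) and an adjusted p of 0.190. In linear terms its mean signal in WT was 1.54 times that in cKO. Irgm2 (−1.11 ± 0.36, adjusted p = 0.392), Iigp1 (−1.49 ± 0.49, adjusted p = 0.394) and Mx1 (−0.91 ± 0.32, adjusted p = 0.430) came next. The largest difference was that of Oas2, −1.77 ± 0.68, or 3.40-fold, with an adjusted p of 0.463. Eif2ak2 thus differed less than Oas2 but with a far smaller spread among tumors of a group, 0.22 and 0.15 (SD) against 1.19 and 1.14.

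A difference of −1 or less was found for 13 of the 43 genes, none past the threshold. Irf7 had −1.17 ± 0.45, Usp18 −1.17 ± 0.71, Ifit1 −1.23 ± 0.54, Mx2 −1.20 ± 0.54, Oas1g −1.55 ± 0.72 and Oas3 −1.54 ± 0.70. Rsad2 had −1.01 ± 0.54, and the 4 others were Oasl1, Oasl2, Cmpk2 and Irgm2, besides Oas2 and Iigp1. Their limma adjusted p-values ran from 0.392 for Irgm2 to 0.638 for Usp18. The difference of Oas1g was −0.95 without cKO 4, and that of Rsad2 −1.54 without WT 2, moves of over 1.5 times.

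Smaller differences were measured for the other genes whose tumor values are given. Isg15 had −0.99, Xaf1 −0.95, Gbp3 −0.96, Igtp −0.86, Dhx58 −0.86, Parp14 −0.84 and Stat2 −0.73. Herc6 had −0.66, Ifi35 −0.64, Zbp1 −0.61, Lgals3bp −0.54 and Ddx58 −0.53. Leaving out 1 tumor moved some of these by over 1.5 times. Lgals3bp was −0.24 without cKO 1 and −0.87 without cKO 2, and Zbp1 was −0.37 without WT 1. Herc6 was −1.002 without WT 2, and Ifi35 was −0.43 without cKO 4. Ifi35 and Lgals3bp were the 2 genes with more than 1 row. With the mean of a gene's rows in place of the brighter row, Ifi35 was −0.35 and Lgals3bp −0.55. The genes that did not follow the shared pattern were close to no difference, with −0.11 for Ifit3, −0.08 for Irf1 and −0.03 for Gbp6. Ifi27, at 0.07, was the 1 gene of the 43 with a higher mean in cKO. With 1 tumor left out, Ifit3 ran from −0.18, without cKO 3, to −0.05, without WT 1, and Irf1 from −0.12, without WT 4, to −0.02, without WT 1. Ifi27 ran from −0.08, without WT 4, to 0.20, without WT 2.

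**Figure D4:**
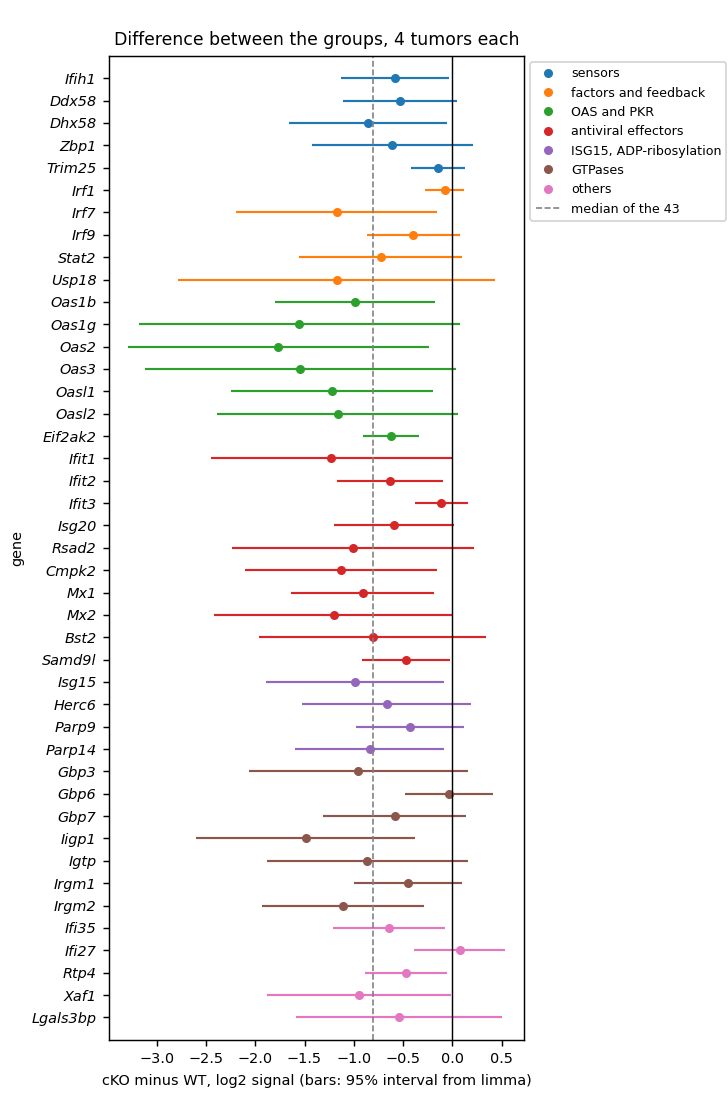
Difference in mean log2 signal, cKO minus WT (4 tumors each), for the 43 genes, with 95% intervals from limma before adjustment, coloured by role. 42 of the points lie left of 0, Oas2 is farthest at −1.77, and Eif2ak2 has a narrow interval from −0.91 to −0.34.

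The interferon genes themselves were measured next to their targets. Of 21 listed, 19 had a row, and only 3 of these had a mean of at least 5, namely the interferon alpha genes Ifna1 and Ifna4 and the interferon lambda gene Ifnl2. Their score ranged over 0.16 across the 8 tumors, against 1.77 for the 43 stimulated genes, and their median difference between groups was 0.00076. A score averages out rows that do not move together. The median range of a single gene was 0.57 log2 units for the interferon genes and 1.92 for the stimulated genes. Ifnl2 measured 5.91, 5.83, 5.98 and 5.71 in WT 1 to WT 4 and 6.01, 5.97, 6.32 and 6.17 in cKO 1 to cKO 4 (adjusted p = 0.479). None of the 19 had an r above 0.5 with the score of the stimulated genes. Whether rows this dim report the RNA was not tested, since no detection call was used here.

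Of 9 measured receptor subunits and kinases, 6 had a lower and 3 a higher mean in cKO. Their mean score difference was −0.09, and 0 of 9 had an unadjusted p under 0.05. Ifnar1, a subunit of the type I interferon receptor, was 0.11 higher in cKO, and its partner Ifnar2 differed by −0.07. The kinase gene Jak1 differed by −0.12. Ifnlr1, a subunit of the type III interferon receptor, measured 7.13, 6.53, 7.03 and 7.22 in WT 1 to WT 4 and 6.998, 6.75, 5.64 and 6.24 in cKO 1 to cKO 4, a difference of −0.57 (adjusted p = 0.561) with r = 0.49. It was lowest in cKO 3, and the groups overlapped. Ifngr1, a subunit of the interferon gamma receptor, differed by −0.26 (adjusted p = 0.556) with r = 0.82. Of 9 brakes of interferon signalling, Adar, which edits double-stranded RNA, followed the stimulated genes with r = 0.968 and a difference of −0.55 (adjusted p = 0.499). The deoxynucleotidase gene Samhd1 had r = 0.81 and a difference of −0.40. Ptpn6, a phosphatase gene expressed in leukocytes, ran opposite, with r = −0.90 and a difference of 0.35.

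Among 14 upstream sensing genes, Cgas, the sensor of cytosolic DNA, had the largest difference in either direction. It was 0.57 higher in cKO tumors with no overlap between groups, and did not pass the test (adjusted p = 0.211). It was singled out after its values were seen. Tlr3, the endosomal receptor of double-stranded RNA, had r = 0.71 with the score and a difference of −0.35. Sting1, which relays the Cgas signal, differed by −0.16.

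Other interferon-stimulated genes, from a second list of 67 that shares no gene with the first, ordered the tumors in the same way, apart from an exchange of cKO 1 and cKO 4. Their score was 0.50, −0.27, 0.14 and 0.40 in WT 1 to WT 4 and −0.40, 0.01, −0.01 and −0.37 in cKO 1 to cKO 4. Of the 56 measured, 23 had an r above 0.8 with the score of the 43 genes, 52 had a lower mean in cKO and 4 a higher one. At an unadjusted p under 0.05, 10 were lower and 0 higher, where 4.14% of all rows were lower, and 0 passed after adjustment. Ifitm3, which blocks viral entry, measured 10.67, 9.77, 10.56 and 10.88 in WT and 9.60, 10.01, 9.73 and 9.09 in cKO, a difference of −0.87 ± 0.26 (adjusted p = 0.347). Rnf213, a large ubiquitin ligase gene, differed by −0.67 with r = 0.92. Ly6e differed by −0.42 with r = 0.67, and Ifi30, a lysosomal reductase gene, by −0.09 with r = 0.35.

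Over 9899 genes with a mean of at least 5 that were not among the 47, those with the highest Pearson r with the score over the 8 tumors were Parp12 (0.988), Tor3a (0.987), Tdrd7 (0.980), Daxx (0.980) and Brpf1 (0.977). Trafd1 (0.975), Ddx60 (0.973), Cep170b (0.972), Adar (0.968) and Phf11d (0.967) followed. Of these 10, 6 had already been placed on a list of interferon-related genes, and Daxx, Brpf1, Trafd1 and Cep170b had not. Parp12 measured 9.45, 8.05, 9.02 and 9.60 in WT and 7.81, 8.94, 8.68 and 7.84 in cKO. Brpf1 followed the pattern over a range of only 1.21-fold.

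MHC class I processing genes, many of which interferon also induces, followed in part. Their score was 0.20, −0.13, 0.03 and 0.26 in WT 1 to WT 4 and −0.35, 0.08, 0.23 and −0.33 in cKO 1 to cKO 4, so that cKO 3 ranked among the high tumors. Psmb8, an immunoproteasome subunit, had r = 0.91 with the score of the stimulated genes, and none of the 10 genes passed the test.

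**Figure D5:**
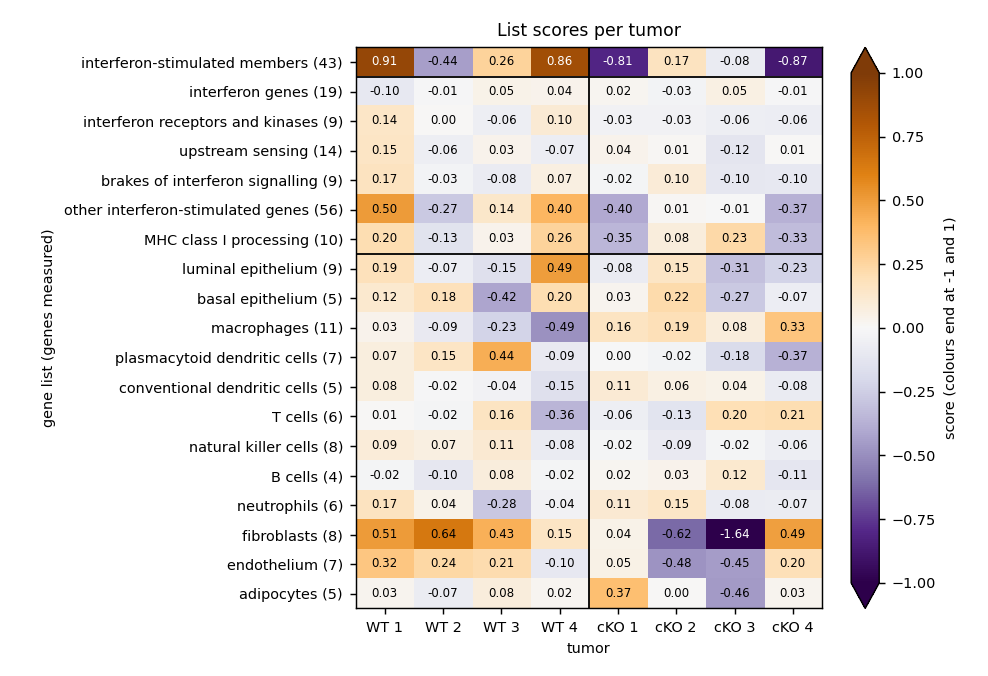
Score per tumor (mean log2 deviation from the gene means) for the 43 interferon-stimulated genes, 6 lists of related genes and 12 lists of cell type markers, with the number of genes measured. The second list of interferon-stimulated genes runs from 0.50 in WT 1 to −0.40 in cKO 1, and the interferon genes stay between −0.10 and 0.05.

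Marker lists of the cell types in a whole tumor are given beside the score. The luminal epithelial score was 0.19, −0.07, −0.15 and 0.49 in WT 1 to WT 4 and −0.08, 0.15, −0.31 and −0.23 in cKO 1 to cKO 4, and it correlated with the score of the stimulated genes with r = 0.714. The summed linear signal of its 9 measured markers ranged from 7972 to 11102 in WT and from 7482 to 9503 in cKO, and 8 of the 9 had a lower mean in cKO. Macrophage markers ran the other way, with r = −0.641. Of 12, 11 were measured, 9 were higher in cKO, 7 of them at an unadjusted p under 0.05 and 0 after adjustment. Of all rows, 5.54% were higher in cKO at that p. In 4 of the 11 all cKO tumors lay above all WT tumors, and the share of all rows that did so was not counted. The summed macrophage signal was 844 to 1181 in WT and 1241 to 1444 in cKO. The part of these lists in the result was not tested.

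Plasmacytoid dendritic cells, a main producer of type I interferon, had 7 markers measured, of which 1, Ly6d, had a mean of at least 5, and their list score had r = 0.324. Siglech, the marker most particular to these cells, had a mean of 3.91 and r = 0.73. That was the highest r of the 7, whose median was 0.138, and 6 of the 7 had an r under 0.5. The summed signal of the 7, of which Ly6d was the brightest with a mean of 6.64, was 143 to 400 in WT and 87.3 to 205 in cKO. T cell markers (6 of 10 measured), natural killer cell markers (8 of 8) and B cell markers (4 of 5) all had means under 5, and their scores had r of −0.462, 0.180 and 0.281. All 8 fibroblast markers had a lower mean in cKO, 4 of them at an unadjusted p under 0.05 and 0 after adjustment, and in 2 of them all cKO tumors lay below all WT tumors. Of all rows, 4.14% were lower in cKO at that p, and in 1.73% all cKO tumors lay below all WT tumors. The score of the fibroblast markers differed by −0.86. Their score was −1.64 in cKO 3 and −0.62 in cKO 2, against 0.04 in cKO 1 and 0.49 in cKO 4, with summed signals of 3464 to 3949 in WT and 658 to 3029 in cKO. It had r = −0.0053 with the score of the stimulated genes. All 7 endothelial markers also had a lower mean in cKO, 1 of them at an unadjusted p under 0.05 and 0 after adjustment. All cKO tumors lay below all WT tumors in 2 of the 7. Their score differed by −0.34, their summed signal was 558 to 828 in WT and 462 to 752 in cKO, and r was −0.0681. The part of these lists in the result was likewise not tested.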

How the data were processed

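Total RNA of 8 mammary tumors, 4 WT and 4 cKO, was measured on 8 Affymetrix arrays. The series table was deposited as log2 values, 1 for each row of each array. RMA and limma are named in the submitters' processing notes, with versions and parameters not given in the sources used here. RMA makes signals relative to a common distribution, so a shift of all genes at once is not visible. Of 41345 rows, 23521 carried 1 symbol in the platform annotation, 1814 several, and 16010 are unnamed here. No 2 arrays were copies of each other: r across rows lay between 0.976 and 0.989, and identical values made up at most 0.058% of rows.

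For all 23521 rows, limma 3.58.1 under R 4.3.3 gave cKO minus WT without covariates (lmFit, eBayes, two-sided p), with Benjamini-Hochberg adjustment and a threshold of adjusted p 0.05. The fit was tested on simulated data. The members, roles and lists were chosen with earlier results of these data known. Tumor values are printed for up to 3 members per role with the largest SD, the 3 with the lowest r and the 4 with the smallest p. Up to 4 genes per related list with the highest mean were eligible for naming, and the 10 genes most like the score. Other genes named were chosen after their values were seen. Alternatives were other normalizations, a filter on dim rows, the mean of a gene's rows, another variance model, tumors left out, and blocks for replicate number and array number. Promoter windows came from a RefSeq table of GRCm38.p6, matched by gene identifier or symbol.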

Additional observations from a re-analysis of the deposited data

Results flagged for a closer look

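Irf1, the interferon-induced transcription factor whose row hardly varied, had 1 cKO tumor apart from the others. Its log2 signal was 6.20 in cKO 3, against 6.11 in each of the other 3 cKO tumors, and the gap was 0.94 of the group's whole range. That range was small beside the WT tumors, which lay between 6.09 and 6.38. The gap was the 1 found in 88 groups of 4 tumors that were examined, and chance alone gives about 1 in 20 such groups.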

How the results depend on the processing

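No setting brought any of the 43 genes past the threshold, and the direction was kept for 455 of 458 values of the 27 genes printed by tumor. The other 3 were near 0: Irf1 was 0.064 within arrays 5 to 8, and Ifi27 was −0.079 without WT 4 and −0.071 without cKO 2, in a range up to 0.197 with 1 tumor left out. Many of the 458 values could not change direction. The other variance model, the 2 blocks and the filter on dim rows leave a gene's difference unchanged by construction. The mean of a gene's rows can change it only for the 2 genes with more than 1 row. The mean difference of −0.79 ran from −1.07 to −0.62 with 1 tumor left out, and its median from −1.10 to −0.57. Within arrays 1 to 4, as numbered in the labels, the mean was −0.55, and within arrays 5 to 8 it was −1.03. The median pairwise r of 0.919 ran from 0.895 to 0.934 with 1 tumor left out and was 0.905 by Spearman; without WT 1 and cKO 4, the tumors farthest from the median score, it was 0.894, a choice made after seeing the data. Rows past the threshold over the whole array, 2 in all, were 0 with the replicate block, 1 with arrays 1 to 4 against 5 to 8 as a block, 0 within either of these sets, and 0 to 3 with 1 tumor left out; the cause was not tested. With the replicate block, 5 genes in place of 19 had an unadjusted p under 0.05, and the lowest adjusted p was 0.415. The share of all rows at that unadjusted p was not counted with the block, so the 5 genes have no background. The labels do not state whether the replicate numbers pair the tumors. Same-numbered tumors had r of −0.02, −0.20, 0.29 and −0.24 between their deviations from the group means. Values this few cannot decide whether the tumors were paired. The longer promoter motif was held by 10 genes in place of 21, by construction a subset. Dim rows limit Mx1 and Gbp6, which left the analysis at a minimum mean of 5.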

Other observations

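Some values of genes outside the list were singled out after they were seen. The apolipoprotein L genes Apol9a and Apol9b, which are near-identical copies and uncertain apart, had r of 0.96 and 0.95 with the score of the stimulated genes and differences, cKO minus WT, of −0.80 and −1.21. Ube2l6, the conjugating enzyme of ISG15, had r = 0.99 and a difference of −0.63, and Uba7, its activating enzyme, r = 0.87 and −0.55. Krt19, a luminal keratin gene, differed by −1.15, the largest of the luminal markers, with r = 0.60. Ms4a7, a macrophage marker, was 1.01 higher in cKO, with r = −0.78 and no overlap between the groups. None of these passed the test after adjustment over all rows with limma, where the adjusted p-values were 0.648, 0.593, 0.549, 0.494, 0.446 and 0.200 in the same order.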
